A study of Mus musculus with 6 samples.

Results

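The nuclear-encoded subunits of the mitochondrial respiratory chain and ATP synthase were described in hematopoietic stem cells of mouse bone marrow, in 3 libraries labelled Thbs1 knockout and 3 control libraries. Members were the genes of the deposited expression table whose symbols carry a respiratory chain prefix (Ndufa, Ndufb, Ndufc, Ndufs and Ndufv with a number, Sdha to Sdhd, Uqcr, Cyc1, Cycs, Cox4 to Cox8 and Atp5). Symbols with -ps or ending in os were left out, which removed 13 symbols. The rule used no measured value and gave 90 of 52183 genes. These fell into 38 genes of complex I, 4 of complex II, 9 of complex III, 1 of cytochrome c (Cycs), 21 of complex IV and 17 of complex V. Ndufa4 and Ndufa4l2 were placed with complex IV, since the Ndufa4 protein is now known as a subunit of cytochrome c oxidase. Of the 90 genes, 86 were annotated as protein-coding and 4 (Ndufa11b, Ndufb4c, Ndufs6b and Cox6c2) as processed pseudogenes.

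The respiratory chain passes electrons from NADH through complex I, or from succinate through complex II, to ubiquinone. Complex III hands them to cytochrome c, complex IV hands them to oxygen, and complex V uses the proton gradient that results to make ATP. Complexes I, III, IV and V join subunits encoded in the nucleus with a few encoded in mitochondrial DNA, whereas complex II is wholly nuclear-encoded. Core subunits carry the redox centres, the proton path or the catalytic sites, and accessory subunits surround them. As counted here, core also took in Atp5c1, Atp5d and Atp5e of complex V, which this description does not cover. Quiescent hematopoietic stem cells are known for relying less on oxidative phosphorylation than the dividing progenitors they give rise to.

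All mice were 4 months old and female, and the stem cells were sorted by flow cytometry. The SMART-Seq v4 kit, which primes on poly(A) tails and leaves strand unmarked, was used on 2 ng of RNA per library. The strain, the way the gene was deleted, the gates of the sort and the number of animals behind a library were not given in the sources used here. No source says that replicates came from separate animals, so the spread behind each p-value is that between libraries and may be technical.

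Thbs1, which encodes the secreted glycoprotein thrombospondin 1, was measured in FPKM (fragments per kilobase of transcript, scaled to depth), with 10.8, 8.50 and 7.68 FPKM for labelled knockout and 4.12, 13.8 and 2.33 FPKM for control. The mean level of the targeted gene was not lower in the libraries labelled knockout (9.0 ± 1.63 against 6.76 ± 6.18 FPKM, SD, n = 3 each; exact two-sided permutation p = 0.5, with 0.1 the smallest p possible). The fitted log2 change was 0.65 ± 0.43 (SE; limma adjusted p = 0.503). Without control library 2 it was 1.26 and passed the test (limma adjusted p = 0.0343), with the labelled knockout libraries higher. The level thus was not lower with the knockout label, and with all libraries the difference did not pass. As the way the gene was deleted was not given, the transcript level cannot decide whether the label holds. Each direction given below rests on the labels.

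Depth recovered from the steps of the FPKM values was 25740000 to 30890000 reads in the libraries labelled knockout and 22730000 to 25880000 reads in the control libraries. All 10 markers fixed for hematopoietic stem cells (such as Procr, Hlf and Mecom) were measured at a mean of at least 4.62 FPKM, and their sum was 674 to 765 FPKM in libraries labelled knockout and 692 to 774 FPKM in controls. Of these, 5 had an unadjusted p below 0.05, with Ly6a, Slamf1 and Hlf lower and Procr and Fgd5 higher in every library labelled knockout than in every control. Of the 5, Ly6a passed the test, as lower (76.9 ± 11.1 FPKM in libraries labelled knockout and 115 ± 6.78 FPKM in controls, limma adjusted p = 0.0286). The stromal and endothelial markers summed to 9.26 to 11.3 FPKM in libraries labelled knockout and 10.5 to 12.2 FPKM in controls. B and T cell markers summed to 24.5 to 27.9 FPKM in libraries labelled knockout and 28.8 to 31.2 FPKM in controls. Erythroid markers summed to 36.1 to 40.4 FPKM in libraries labelled knockout and 44.9 to 50.5 FPKM in controls, and the beta globin gene Hbb-bt passed as lower among them (4.06 ± 0.462 FPKM in libraries labelled knockout and 14.8 ± 4.50 FPKM in controls, limma adjusted p = 0.00247). Neutrophil and monocyte markers summed to 335 to 369 FPKM in libraries labelled knockout and 357 to 399 FPKM in controls. Megakaryocyte markers summed to 316, 236 and 215 FPKM in libraries labelled knockout and 434, 399 and 332 FPKM in controls, without overlap. Most of that sum was Pf4, platelet factor 4, with 245, 164 and 159 FPKM in libraries labelled knockout and 354, 321 and 270 FPKM in controls (limma adjusted p = 0.0594), while the other 3 overlapped. No marker of any list was at 0 in all libraries.

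No respiratory chain gene passed the test between the groups. Of the 82 members with at least 1 FPKM in at least 3 libraries, 0 were called (limma on log2(FPKM + 1), Benjamini-Hochberg adjusted p below 0.05 over 12555 genes), where 1.56% of all tested genes did, 0.566% as higher and 0.996% as lower with the knockout label. At an unadjusted p below 0.05 there were 2 members, Cox4i2 and Cox7a2l, against 16.4% of all tested genes. The fitted change was above 0 for 44 members and below 0 for 38, and ran from -0.72 to 0.17. The members' median was 0.0035, beside 0.014 over all tested genes and 0.046 over tested genes with a mean above 10 FPKM. For 80 of the 82 members the 95% interval lay within 0.5 of 0 on the log2 scale, a factor of 1.41 either way. The exceptions were Cox4i2 and Cox6c2. All log2 changes are of FPKM + 1, so that those of low genes are understated.

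The summed level of all 90 members was 9466, 9771 and 9006 FPKM in the libraries labelled knockout and 8620, 9061 and 10476 FPKM in the control libraries. The groups overlapped, and control 3 and control 1 held the highest and the lowest sum. The means were 9414 ± 385 FPKM in libraries labelled knockout and 9386 ± 970 FPKM in controls (SD, n = 3 each). Reads on the members made up 1.58% to 1.68% of the reads in libraries labelled knockout and 1.51% to 1.77% in controls.

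The groups did not overlap for 7 of the 82 tested members, beside 22.8% of all tested genes. In 6 of them (Cox7a2l, Uqcrfs1, Uqcrc2, Cyc1, Sdha and Atp5a1) the libraries labelled knockout were all higher, against 12.6% of tested genes, and in 1 (Cox4i2) they were all lower, against 10.1%. Both shares of tested members lay below the share over all genes. Cox7b2, too low to be tested, also did not overlap.

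**Figure D1:**
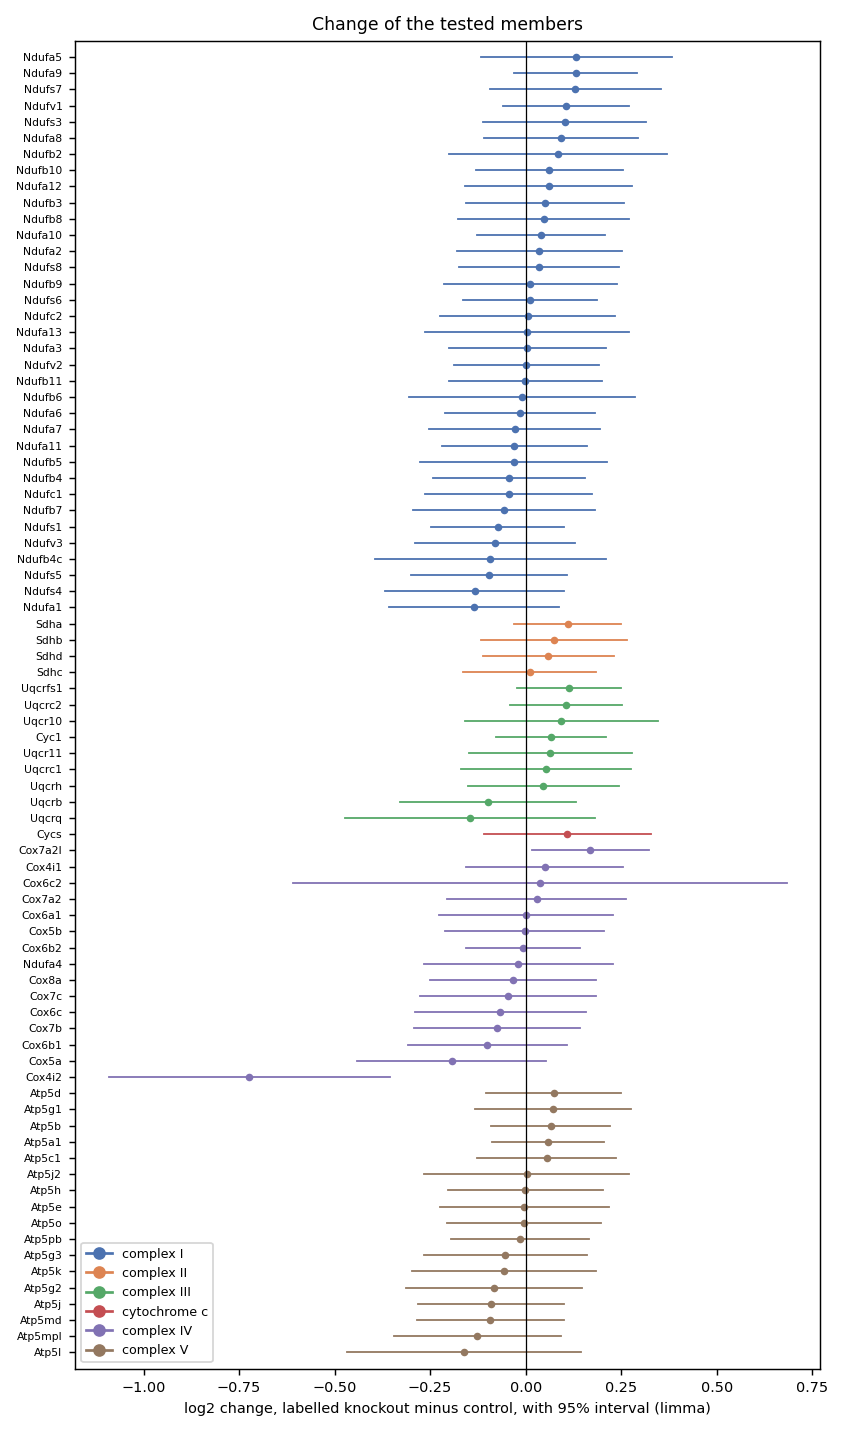
Log2 change on the log2(FPKM + 1) scale, libraries labelled knockout minus control, with its 95% interval from limma, for the tested members but 1, grouped by complex. All intervals cross 0 except those of Cox4i2 (-1.09 to -0.36) and Cox7a2l (0.02 to 0.32), and neither passed after adjustment.

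The count of 0 depended on one choice of scale. FPKM values were also rescaled to the same sum in every library (TPM, a share of all transcripts). Then 25 of 84 tested members were higher in the libraries labelled knockout, beside 13.2% of all tested genes called in that direction, and the median of all tested genes stood at 0.19 instead of 0.014. The members' median of 0.21 was therefore 0.014 above that of all genes. Genes with at most 400 bases of exon held 6.07% to 6.32% of the FPKM sum in libraries labelled knockout and 17.8% to 21.2% in control libraries. With these genes left out of the rescaling, an alternative chosen after seeing the data, 0 members passed (limma) and their median was -0.0059. The 25 genes were 10 of complex I, 3 of complex II, 5 of complex III, Cycs, 2 of complex IV and 4 of complex V, and they included Cox7a2l (0.37 ± 0.06 SE), Uqcrfs1 (0.32 ± 0.06) and Ndufa9 (0.34 ± 0.06).

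FPKM is a level per length, and its order between genes depends on the length used. By FPKM, among the 78 members other than tissue-restricted isoforms and near-identical copies, Cox8a, the smallest subunit of cytochrome c oxidase, had the highest mean over the 6 libraries at 453 FPKM. Atp5a1, the alpha subunit of the catalytic head of ATP synthase, followed at 391 FPKM. The lowest were Atp5l, subunit g of ATP synthase, at 3.35 FPKM and Ndufb2, an accessory subunit of complex I, at 3.93 FPKM. Levels within a complex thus ran over 80.8-fold in complex I, 3.79-fold in complex II, 5.71-fold in complex III, 20.03-fold in complex IV and 117-fold in complex V.

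The lowest levels depended on the length used. In genes of at most 400 bases, low FPKM values came out as whole reads with the merged length of all exons. The same length was assumed for longer genes, where it was not checked. For Atp5l the merged length is 6443 bases, where its principal transcript has 544. Divided by the length of the principal transcript, Atp5l stood at 39.7, and the range within complex V was 20.8-fold. The range within complex IV was 7.06-fold on that scale, that of complex I 93.04-fold and that of complex III 7.77-fold. Ndufb2 remained low at 5.06, where the transcript taken as principal has 4371 bases, of which 315 are coding. Among transcripts ranked equally as principal, the one with the longest coding sequence, and then the longest, was taken. The low level of Ndufb2 and the range within complex I depend on the length so chosen. On that scale Atp5b, the catalytic beta subunit, was highest at 827, followed by Ndufa4 at 519.5 and Atp5g3 at 518.

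**Figure D2:**
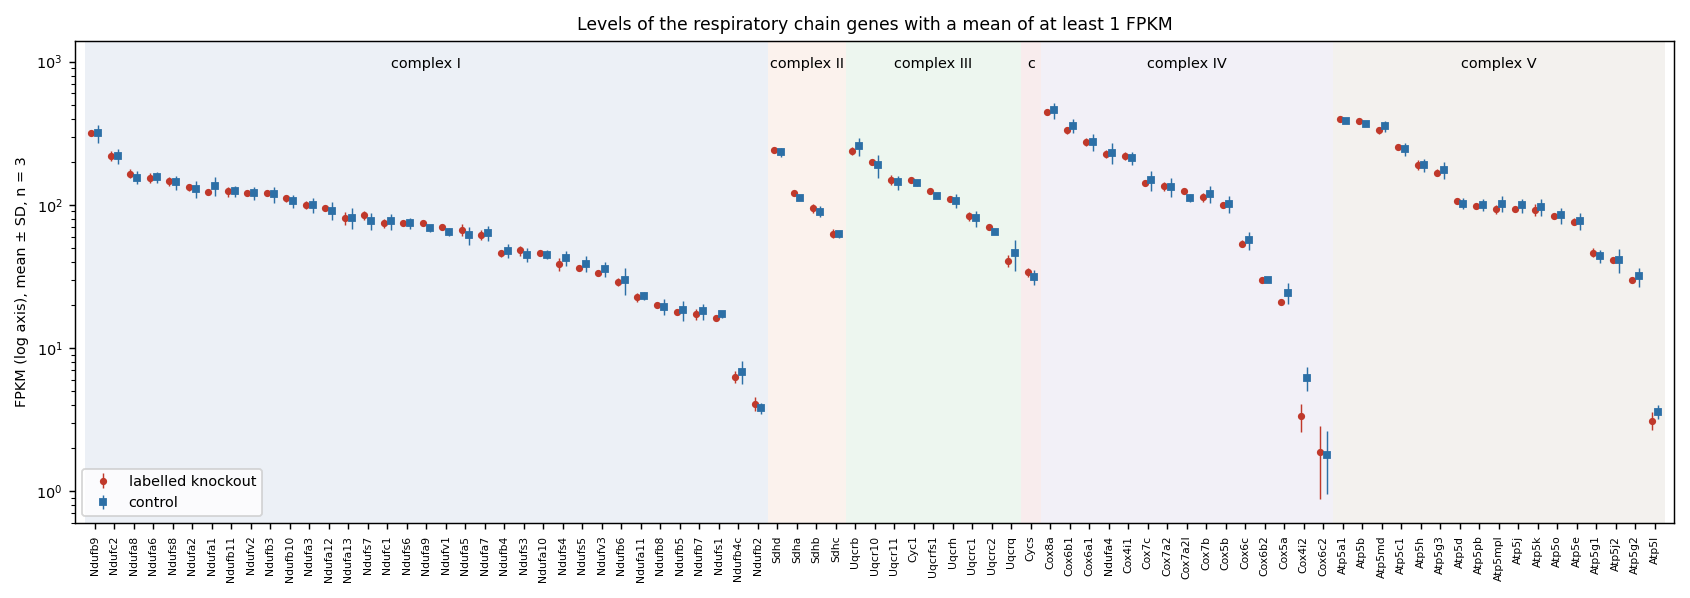
Mean FPKM with SD (n = 3 each, log axis) in libraries labelled knockout and in control libraries for the members but 1 with a mean of at least 1 FPKM, grouped by complex. The paired points lie close together for nearly every gene, and Cox4i2, at 3.34 FPKM in libraries labelled knockout and 6.15 FPKM in controls, is the pair that stands furthest apart.

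Motifs that the choice by name did not use were counted in the promoters, with no test. RefSeq promoters (GRCm38.p6, 250 bases before the start) were matched by symbol for 69 of the 90 members, with 74 promoters. The palindromic binding motif of NRF1, a transcription factor known to drive respiratory chain genes, is the run of capitals in the promoters printed here. It stood in 4 of the 74 promoters (5.41%), beside 0.782% of all 32851 promoters and 1.75% of 10943 promoters of tested coding genes. With any base allowed in place of its only A (both strands, which includes the exact motif) a match was found in 14 member promoters (18.9%), beside 3.74% of all promoters and 8.63% of those of tested coding genes. CCGGAAG, the ETS motif bound by GABP, stood in 16.2% of member promoters, beside 6.91% of all and 14.4% of tested coding genes. GCCATNTTG, the YY1 motif, stood in 4.05%, beside 1.33% and 1.86%; both were searched on both strands. Median GC content was 56.2% in member promoters, 60% in those of tested coding genes and 52.4% in all.

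The 4 promoters with the exact NRF1 motif are printed 5′ to 3′ on the strand of the gene, with the motif in capitals. They belong to Atp5g2 (chr15:102671048-102671297, minus strand), Atp5k (chr5:108434400-108434649, minus strand), Cox6a1 (chr5:115348959-115349208, minus strand) and Ndufa11 (chr17:56717512-56717761, plus strand). The motif began 42, 50, 162 and 60 bases before the start.
Atp5g2: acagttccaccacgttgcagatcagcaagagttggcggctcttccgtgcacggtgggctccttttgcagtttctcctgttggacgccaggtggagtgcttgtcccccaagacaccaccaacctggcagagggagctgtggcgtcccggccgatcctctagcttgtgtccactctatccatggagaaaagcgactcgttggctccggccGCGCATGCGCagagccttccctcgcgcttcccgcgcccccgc
Atp5k: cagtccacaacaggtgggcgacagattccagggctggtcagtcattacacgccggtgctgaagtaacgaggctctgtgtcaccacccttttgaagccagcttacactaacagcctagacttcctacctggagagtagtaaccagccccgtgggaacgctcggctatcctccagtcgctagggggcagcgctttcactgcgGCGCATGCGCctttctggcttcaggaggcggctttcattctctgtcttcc
Cox6a1: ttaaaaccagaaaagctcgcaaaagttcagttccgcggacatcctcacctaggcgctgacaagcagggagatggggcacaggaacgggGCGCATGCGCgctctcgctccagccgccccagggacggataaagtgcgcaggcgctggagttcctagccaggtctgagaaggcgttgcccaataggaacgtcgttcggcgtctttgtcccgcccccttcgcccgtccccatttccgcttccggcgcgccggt
Ndufa11: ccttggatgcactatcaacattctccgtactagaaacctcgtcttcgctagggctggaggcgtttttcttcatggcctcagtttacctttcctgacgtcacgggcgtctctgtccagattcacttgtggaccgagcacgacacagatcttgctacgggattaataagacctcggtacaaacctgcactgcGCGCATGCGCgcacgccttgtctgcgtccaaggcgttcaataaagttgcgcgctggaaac
A match is a description of letters and not of binding. The 13 member genes with a match that allows any base there had a median log2 change of 0.0013 and a median level of 94.7 FPKM, and the 53 tested genes with a promoter and no match had 0.0029 and 96.3 FPKM.

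Complex I, which takes electrons from NADH, summed to 3065, 3069 and 2809 FPKM in the libraries labelled knockout and 2660, 2868 and 3324 FPKM in the control libraries. None of its 36 tested members passed the test (limma), none had an unadjusted p below 0.05, and their median log2 change was 0.0048, with 21 fitted above 0 and 15 below. The 3 highest, all accessory subunits, were Ndufb9 (318 ± 12.8 against 317 ± 45.8 FPKM, labelled knockout against control, SD, n = 3 each), Ndufc2 (219.7 ± 18.9 against 219.5 ± 27.9 FPKM) and Ndufa8 (165 ± 11.8 against 155 ± 16.1 FPKM). Their group means differed by less than the spread between replicates.

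Among the complex I members with the smallest p, Ndufa9, an accessory subunit where the 2 arms of the enzyme meet, had 74.0, 78.9 and 72.5 FPKM in libraries labelled knockout and 64.7, 67.9 and 73.0 FPKM in controls (log2 change 0.13 ± 0.07 SE, limma adjusted p = 0.405). Ndufv1, the core flavoprotein that oxidises NADH, had 71.0, 71.4 and 66.6 FPKM in libraries labelled knockout and 60.6, 63.9 and 69.7 FPKM in controls (0.11 ± 0.07, limma adjusted p = 0.518). In both genes the groups overlapped through control 3, the highest control. Ndufa1, an accessory subunit encoded on the X chromosome, had 123, 126 and 120.1 FPKM in libraries labelled knockout and 120.1, 129 and 159 FPKM in controls (-0.14 ± 0.10, limma adjusted p = 0.545). Here control 3 stood highest, and control 2 also stood above every library labelled knockout. Without control 3 the log2 change was -0.02.

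Complex II, which is also succinate dehydrogenase of the tricarboxylic acid cycle, summed to 512, 545 and 502 FPKM in the libraries labelled knockout and 462, 504 and 523 FPKM in controls. All 4 members were fitted above 0 and none passed the test (limma) or had an unadjusted p below 0.05. Sdha, the flavoprotein that oxidises succinate, had 120.4, 123 and 118 FPKM in libraries labelled knockout and 108, 115 and 113 FPKM in controls. Its groups did not overlap, and the log2 change was 0.11 ± 0.06 (SE, limma adjusted p = 0.422). Sdhb, the iron-sulfur subunit, averaged 94.4 ± 7.22 FPKM in libraries labelled knockout and 89.8 ± 7.82 FPKM in controls. The membrane anchors averaged 62.8 ± 4.58 FPKM in libraries labelled knockout and 62.3 ± 3.56 FPKM in controls for Sdhc (SD, n = 3 each). For Sdhd they averaged 242 ± 8.23 FPKM in libraries labelled knockout and 232 ± 18.3 FPKM in controls. These 3 overlapped between the groups.

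Complex III, which passes electrons from ubiquinol to cytochrome c, summed to 1166, 1200 and 1126 FPKM in the libraries labelled knockout and 1082, 1072 and 1276 FPKM in controls. None of its 9 members passed the test (limma) or had an unadjusted p below 0.05, and the median log2 change was 0.06. Uqcrfs1, the Rieske iron-sulfur protein, had 126, 125 and 121 FPKM in libraries labelled knockout and 114, 113 and 116 FPKM in controls (0.11 ± 0.06 SE, limma adjusted p = 0.393). Uqcrc2, which lies on the matrix side, carries no redox centre and is counted here as accessory, had 68.1, 69.7 and 71.7 FPKM in libraries labelled knockout and 62.0, 65.1 and 67.5 FPKM in controls (0.11 ± 0.07, limma adjusted p = 0.467). Cyc1, cytochrome c1, had 145.5, 146 and 152 FPKM in libraries labelled knockout and 144.6, 135 and 144 FPKM in controls (0.07 ± 0.06, limma adjusted p = 0.662). In these 3 genes every library labelled knockout stood above every control, by margins that did not pass the test. Uqcrq, a small accessory subunit, had 39.2, 45.2 and 37.9 FPKM in libraries labelled knockout and 40.6, 38.4 and 58.6 FPKM in controls (-0.14 ± 0.15, limma adjusted p = 0.674). Its negative value rested on control 3, and without that library the log2 change was 0.04. The 3 highest genes were the accessory subunits Uqcrb (238 ± 14.7 against 257 ± 37.6 FPKM, labelled knockout against control), Uqcr10 (199.9 ± 6.37 against 189 ± 34.2 FPKM) and Uqcr11 (149.8 ± 12.2 against 143 ± 16.4 FPKM).

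Cycs, the mobile electron carrier cytochrome c, had 33.2, 36.6 and 31.6 FPKM in the libraries labelled knockout and 28.9, 29.5 and 35.7 FPKM in controls. The groups overlapped (log2 change 0.11 ± 0.10 SE, limma adjusted p = 0.626).

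Complex V, the ATP synthase, summed to 2471, 2582 and 2415 FPKM in the libraries labelled knockout and 2332, 2424 and 2729 FPKM in controls. None of its 17 members passed the test (limma) or had an unadjusted p below 0.05, with 6 fitted above 0, 11 below and a median of -0.0037. Atp5a1 had 401, 390.2 and 404 FPKM in libraries labelled knockout and 384, 375 and 389 FPKM in controls, without overlap (log2 change 0.06 ± 0.07 SE, limma adjusted p = 0.716). Atp5b averaged 382 ± 16.2 FPKM in libraries labelled knockout and 365 ± 12.1 FPKM in controls, and these overlapped. Atp5md, a small membrane subunit of the dimeric enzyme, averaged 332 ± 20.2 FPKM in libraries labelled knockout and 354 ± 31.5 FPKM in controls.

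The members of complex V with the smallest p were all accessory and all fitted below 0. Atp5mpl, a small membrane subunit, had 87.3, 101 and 90.3 FPKM in libraries labelled knockout and 91.5, 97.8 and 116 FPKM in controls (log2 change -0.13 ± 0.10 SE, limma adjusted p = 0.567). Atp5l had 2.91, 2.81 and 3.61 FPKM in libraries labelled knockout and 3.33, 3.41 and 4.03 FPKM in controls (-0.16 ± 0.14, limma adjusted p = 0.608). Atp5j, coupling factor 6 of the peripheral stalk, averaged 93.0 ± 2.89 FPKM in libraries labelled knockout and 99.5 ± 11.1 FPKM in controls (-0.09 ± 0.09, limma adjusted p = 0.649), and Atp5md had an adjusted p of 0.643. In each of the 4 genes control 3 was the highest library and the groups overlapped.

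The c ring of ATP synthase, which turns as protons pass, is built from one protein that 3 genes encode. Atp5g3 was the main source, with 69.6%, 68.8% and 68.3% of their summed FPKM in the libraries labelled knockout and 70.1%, 69.2% and 70.1% in controls. It averaged 168 ± 8.84 FPKM in libraries labelled knockout and 175 ± 22.9 FPKM in controls. Atp5g1 averaged 46.3 ± 3.37 FPKM in libraries labelled knockout and 44.1 ± 4.58 FPKM in controls, and Atp5g2 averaged 29.6 ± 0.817 FPKM in libraries labelled knockout and 31.7 ± 4.81 FPKM in controls. Over the 6 libraries the order was the same throughout, Atp5g3 above Atp5g1 above Atp5g2, and the ranges of the 3 genes did not meet. Atp5g1 stood at 26.35%, 28.19% and 28.00% of Atp5g3 in libraries labelled knockout and at 25.11%, 26.28% and 24.24% in controls. These shares did not overlap, by a narrow margin, and were not tested. Divided by the length of the principal transcript the minor genes changed places, with Atp5g2 at 70.3 and Atp5g1 at 47.1, below Atp5g3 at 518. The transcript taken for Atp5g1 has 4715 bases, of which 408 are coding, so this order depends on the transcript chosen.

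Complex IV, cytochrome c oxidase, summed to 2218, 2339 and 2123 FPKM in the libraries labelled knockout and 2055, 2165 and 2587 FPKM in controls. Of its 21 members 15 were tested and none passed (limma), with 2 at an unadjusted p below 0.05, 5 fitted above 0, 10 below and a median of -0.02. Cox7a2l, which takes part in joining complexes III and IV into supercomplexes, had 129, 124 and 124 FPKM in libraries labelled knockout and 105, 117 and 114 FPKM in controls. The groups did not overlap, and the log2 change was 0.17 ± 0.07 (SE, limma adjusted p = 0.257). Cox5a, an accessory subunit on the matrix side, had 20.3, 22.2 and 20.3 FPKM in libraries labelled knockout and 22.1, 21.8 and 28.9 FPKM in controls (-0.19 ± 0.11, limma adjusted p = 0.426). The highest genes were Cox8a (446 ± 22.8 against 459 ± 58.0 FPKM, labelled knockout against control), Cox6b1 (333 ± 19.4 against 358 ± 40.5 FPKM, limma adjusted p = 0.642) and Cox6a1 (275 ± 19.1 against 276 ± 37.6 FPKM), all within the spread between replicates.

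Several subunits of complex IV have a widespread form and a form known from muscle, lung, testis or other restricted tissues. Cox4i2, the form of subunit 4 known for its high level in lung, was the member that differed most between the groups. It had 3.04, 2.78 and 4.19 FPKM in the libraries labelled knockout and 7.48, 5.22 and 5.76 FPKM in the control libraries, on 57 to 153 reads per library. Every library labelled knockout was lower than every control. The means were 3.34 ± 0.75 FPKM in libraries labelled knockout and 6.15 ± 1.18 FPKM in controls (SD, n = 3 each), a ratio of 0.542, with a log2 change of -0.72 ± 0.16 (SE, 95% interval -1.09 to -0.36). It did not pass the test over all genes (limma adjusted p = 0.0704), and the exact two-sided permutation p was 0.1, the smallest that 3 against 3 can give. Under 16 alternatives the log2 change ran from -0.87 to -0.59, with an adjusted p from 0.0543 to 0.301. In bulk RNA fewer cells of a type and less RNA per cell cannot be told apart. The summed megakaryocyte markers were also lower in each library labelled knockout than in each control (256 ± 53.4 against 388 ± 51.9 FPKM), most of it Pf4. The erythroid sum (36.1 to 40.4 against 44.9 to 50.5 FPKM) and the B and T cell sum (24.5 to 27.9 against 28.8 to 31.2 FPKM) also separated this way, and the part of these markers in the Cox4i2 values was not tested. Cox4i2 (ENSMUSG00000009876) lies at chr2:152754173-152765037 (GRCm38), 34.6 Mb from Thbs1. The other members on that chromosome (Ndufa8, Ndufs3, Atp5c1, Atp5g3 and Atp5e) had log2 changes from -0.05 to 0.10.

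Its widespread partner Cox4i1 averaged 219 ± 14.1 FPKM in libraries labelled knockout and 212 ± 23.4 FPKM in controls. Cox4i2 thus stood at 1.31%, 1.26% and 2.05% of the Cox4i1 level in the libraries labelled knockout and at 3.95%, 2.47% and 2.44% in the controls. These ranges did not overlap.

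Cox6b2, known from testis, had 29.6, 30.6 and 29.4 FPKM in libraries labelled knockout and 29.7, 29.5 and 30.7 FPKM in controls. Its coefficient of variation over the 6 libraries, 1.89%, was the lowest of the 82 tested members. It stood at 9.01%, 8.63% and 9.31% of Cox6b1 in libraries labelled knockout and 9.31%, 8.33% and 7.68% in controls. Cox7a1, the heart and muscle form, was under the filter with 0.54, 1.36 and 0.65 FPKM in libraries labelled knockout and 0.36, 0.32 and 0.66 FPKM in controls, and its partner Cox7a2 averaged 135 ± 9.59 FPKM in libraries labelled knockout and 133 ± 19.9 FPKM in controls. The Cox7a1 share of the Cox7a2 level was 0.426% to 0.935% in libraries labelled knockout and 0.263% to 0.423% in controls, and was not tested. Cox7a1 rested on 4 to 19 reads per library, and its own FPKM values overlapped. The gap between shares of 0.426% and 0.423% is therefore too small to count as a separation. Cox6a2, Cox8b and Ndufa4l2 were listed at 0 in most libraries and at no more than 0.18 FPKM in any, and Cox8c was listed at 0 in all 6. Cox7b2 was listed at 0 in the 3 libraries labelled knockout and at 0.21, 0.32 and 0.73 FPKM in controls, and was not tested.

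**Figure D3:**
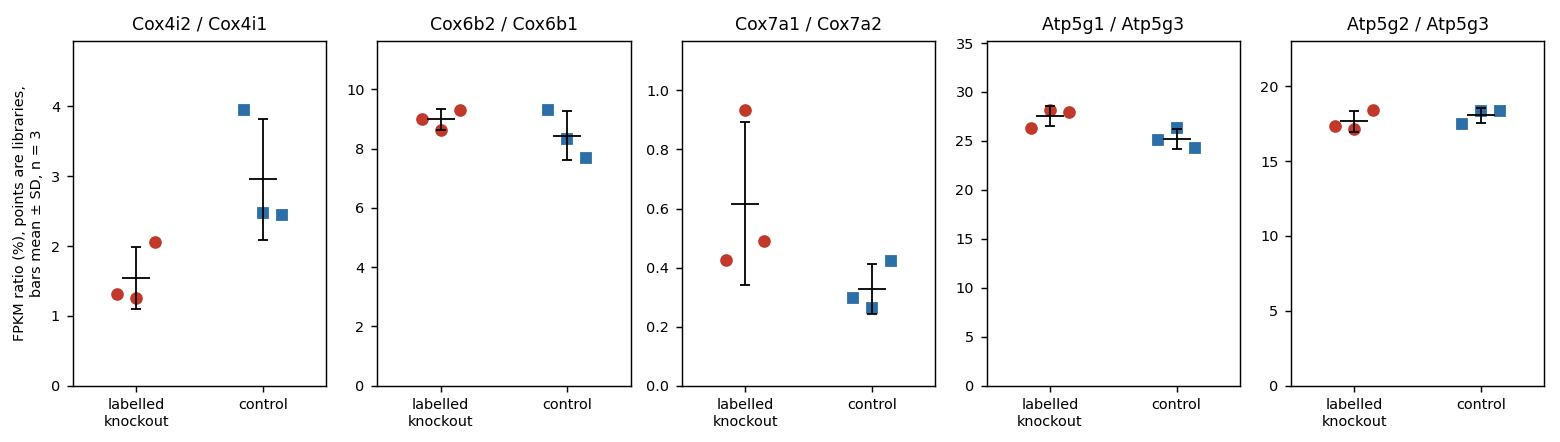
FPKM of a restricted isoform or minor gene as a percent of its widespread partner, with 1 point per library and bars for mean and SD (n = 3), libraries labelled knockout on the left and control on the right. Of the 5 pairs drawn, Cox4i2 over Cox4i1 is without overlap and lower in libraries labelled knockout (1.54% ± 0.445 against 2.96% ± 0.863). Atp5g1 over Atp5g3 is also without overlap, by a narrow margin, and higher in libraries labelled knockout. For Cox7a1 over Cox7a2 the groups all but touch, on 4 to 19 reads of Cox7a1 per library.

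For the median of the members, the control libraries differed more from each other than the groups did. Control 3 was the highest library for 56 of the 82 tested members (68.3%), where it was the highest for 16.9% of all tested genes. Control 1 was the lowest for 50 members. The median deviation of the members from their mean over 6 libraries was 0.01, 0.06 and -0.06 on the log2 scale in the libraries labelled knockout, and -0.13, -0.05 and 0.17 in controls 1, 2 and 3. The coefficient of variation accordingly had a median of 5.56% in libraries labelled knockout and 11.96% in controls, where all tested genes had 10.1% in libraries labelled knockout and 10.2% in controls, and the control SD was the larger one for 74 of 82 members. Without control 3 the members' median log2 change was 0.09, and without control 1 it was -0.07. In 78 of 82 members the highest library was still below 1.5 times the lowest.

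**Figure D4:**
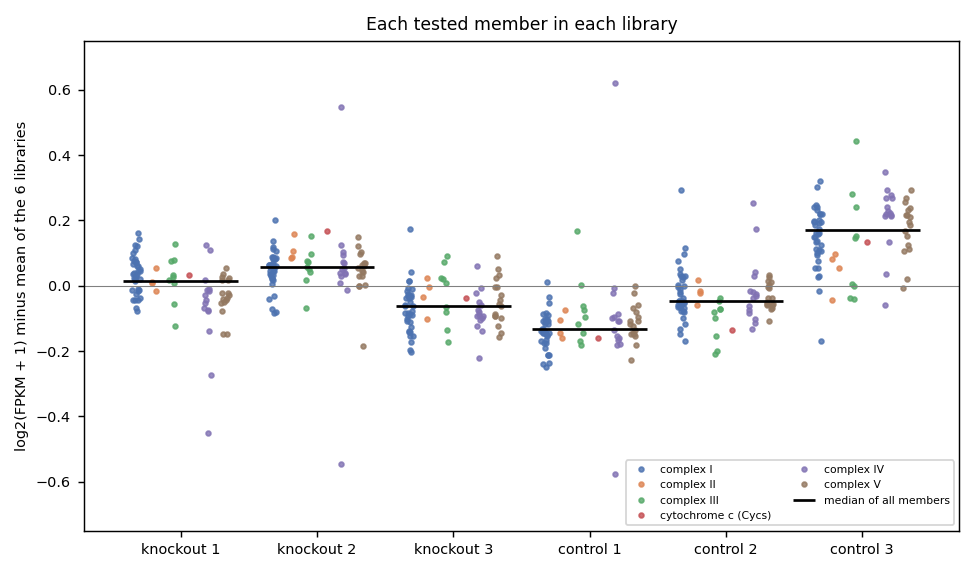
Deviation of each of the 82 tested members from its own mean over the 6 libraries on the log2(FPKM + 1) scale, by library, coloured by complex. Control 3 lies above the other libraries with a median of 0.17, control 1 lies lowest with -0.13, and the libraries labelled knockout lie between them.

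The excess of control 3 moved with transcript length. Over the controls, control 3 minus the mean of controls 1 and 2 had a median of 0.26 on the log2 scale for the members and -0.02 for all tested genes. Tested coding genes were put in 4 classes of nearly equal size by length. Over the shortest class, with principal transcripts of at most 1862 bases, the median was 0.12, and over the longest class, from 4347 bases, it was -0.12. The members are short, with a median principal transcript of 849.5 bases beside 2601 for all tested genes, and 69 of 80 fell in the shortest class. Their median excess within that class was 0.27. Across 80 coding members the excess had a Pearson correlation of -0.49 and a Spearman correlation of -0.48 with log10 length, a description over genes that share the same libraries. The part of transcript length in this excess was not tested.

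**Figure D5:**
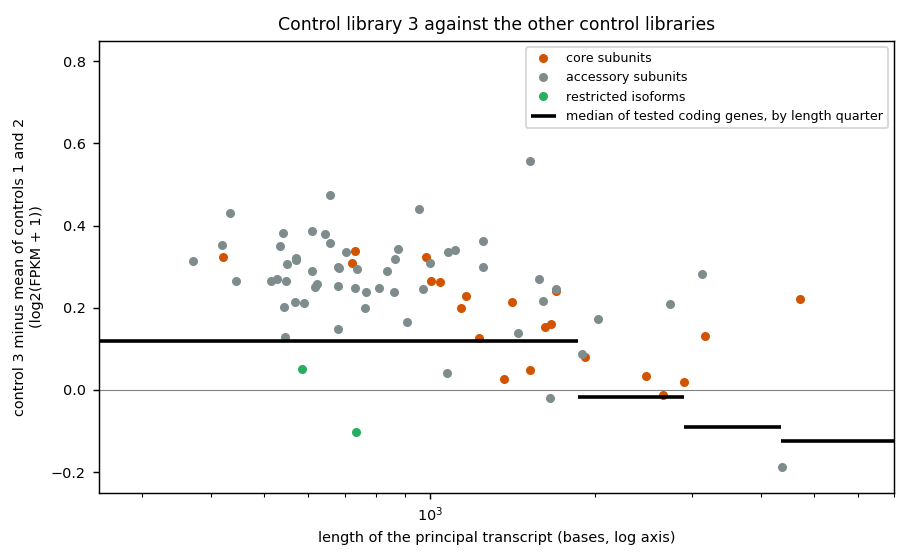
Control 3 minus the mean of controls 1 and 2 on the log2(FPKM + 1) scale against the length of the principal transcript (log axis), for the members coloured by role (Cycs among the accessory subunits), with the median of all tested coding genes in each of 4 length classes as a line. Most members lie above the line, and the line falls from 0.12 in the shortest class to -0.12 in the longest.

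Core and accessory subunits were set side by side after their values had been seen. Of the 21 core subunits 17 were fitted above 0 and 4 below, with a median log2 change of 0.07, where 6704 of 12555 tested genes were fitted above 0. All core subunits had a mean above 10 FPKM. Of the 5835 tested genes above that level 3666 were fitted above 0, with a median of 0.046. Of the other 57 subunits, all accessory except for the carrier Cycs, 26 were fitted above 0 and 31 below, with a median of -0.0028. Without control 3 the medians were 0.12 for core and 0.083 for the other subunits, and without control 1 they were 0.018 and -0.075. In complex I the medians were 0.10 for 7 core and 0.0044 for 28 accessory subunits, and in complex V they were 0.06 for 8 core and -0.06 for 9 accessory subunits. Control 3 was the highest library for 38.1% of core and 82.5% of the other subunits. The median length of the principal transcript was 1410 bases for core and 732 bases for the others, and the difference between the roles was not tested.

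Respiratory chain genes have many processed copies in the genome, to which reads can be assigned. For 25 members, 24 of them tested, another annotated transcript matched at 95% identity or more over at least 200 bases. Each percent below counts reads over the whole of the other gene, not only over the matched stretch. Senp6, a separate coding gene at another locus, matched Atp5l, the lowest widespread member by FPKM, at 96.7% over 245 bases. Reads on Senp6 came to 248% of those on Atp5l in libraries labelled knockout and 267% in controls. These percents do not measure the reads that Atp5l may lose. Ndufb6 and Ndufb5 overlap other coding genes at their own locus. Reads on Smim27 came to 49.7% of those on Ndufb6 in libraries labelled knockout and 40.6% in controls, and those on Mrpl47 to 28.3% of those on Ndufb5 in libraries labelled knockout and 34.4% in controls. Among processed copies, reads on Ndufs5-ps came to 13.9% of those on Ndufs5 in libraries labelled knockout and 14.9% in controls, and those on Cox5b-ps to 5.74% of those on Cox5b in libraries labelled knockout and 6.51% in controls. Ndufb4c, a copy identical to Ndufb4 over 390 bases, had 6.30 ± 0.636 FPKM in libraries labelled knockout and 6.83 ± 1.24 FPKM in controls, and Ndufb4 itself had 46.1 ± 2.52 FPKM in libraries labelled knockout and 47.6 ± 5.21 FPKM in controls. The copy Cox6c2 had 1.26, 2.99 and 1.34 FPKM in libraries labelled knockout and 0.83, 2.25 and 2.29 FPKM in controls. Values of such members are uncertain by the reads on the matched stretches, which were not counted apart. Exon bases of 30 members overlapped another gene, and without strand these reads cannot be told apart.

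Other genes of the pathway were counted from lists. Over all 12555 tested genes, 1.56% passed, 16.4% had an unadjusted p below 0.05, 6704 were fitted above 0 and the median was 0.014. Of 49 tested assembly factors, which build the complexes without staying in them, 0 passed the test (limma; 5 at an unadjusted p below 0.05), with 38 fitted above 0, 11 below and a median of 0.06. Of 77 tested mitochondrial ribosomal proteins 0 passed (14 at an unadjusted p below 0.05), with 64 above 0 and a median of 0.10. Of 18 tricarboxylic acid cycle genes outside complex II 0 passed (1 at an unadjusted p below 0.05), with 17 above 0 and a median of 0.07. Of 13 coenzyme Q synthesis genes 0 passed (5 at an unadjusted p below 0.05), with 11 above 0 and a median of 0.14. Of 10 tested genes of ATP and proton handling in the inner membrane 0 passed (3 at an unadjusted p below 0.05), with 6 above 0 and a median of 0.11. These medians stood beside 0.0035 for the subunits themselves and 0.046 for tested genes with a mean above 10 FPKM. The median of the subunits depended on single controls, with 0.09 without control 3 and -0.07 without control 1. The difference between the lists and the subunits was not tested.

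Of 19 tested regulators of mitochondrial biogenesis 1 rose, beside 0.566% of all tested genes, and 5 had an unadjusted p below 0.05, beside 16.4%. This was Myc, a transcription factor of growth and ribosome production, with 387, 423 and 400.1 FPKM in the libraries labelled knockout and 273, 248 and 225 FPKM in controls (log2 change 0.70 ± 0.08 SE, limma adjusted p = 0.00446). Every library labelled knockout was higher than every control. Without the filter on low values Myc did not pass (limma adjusted p = 0.108).

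Of 11 tested subunits encoded in mitochondrial DNA 1 fell, beside 0.996% of all tested genes, 9 were fitted below 0 and the median was -0.15. The one that fell was mt-Nd3, a complex I subunit, with 0.09, 0.11 and 0.22 FPKM in libraries labelled knockout and 5.20, 5.10 and 5.69 FPKM in controls (log2 change -2.47 ± 0.15 SE, limma adjusted p = 4.65e-05). It is one of the genes with at most 400 bases of exon. The 13 subunits together summed to 3109, 3781 and 3792 FPKM in libraries labelled knockout and 3428, 3247 and 3955 FPKM in controls, and these ranges overlapped. Most of the sum was mt-Co1, mt-Cytb and mt-Nd1. For mt-Co1 the mean was 1765 FPKM in libraries labelled knockout and 1626 FPKM in controls. For mt-Co2, close to the filter, it was 1.13 FPKM in libraries labelled knockout and 1.37 FPKM in controls. The cause of such low values was not tested, and they limit what the count below 0 describes.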

How the data were processed

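RNA of sorted hematopoietic stem cells was sequenced in 3 libraries labelled Thbs1 knockout and 3 control libraries. The authors deposited 1 table of FPKM values for 52183 genes. Tools listed in the submitters' processing notes are STAR, edgeR and FastQC 0.11.5, with no role for each, and the builds GRCm38 and mm10. What set FPKM, and how multimapping reads were handled, was not given in the sources used here. In genes of at most 400 bases the values were whole multiples of 1 read for 99.45% to 99.78% of entries, within 0.1 read, which gave the depths. All gene IDs matched GENCODE M21, which supplied positions, types and lengths.

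A gene entered the fit when 3 or more libraries had 1 FPKM or more. Values were taken as log2(FPKM + 1), and limma 3.58.1 (R 4.3.3) compared the groups (trended eBayes, two-sided, Benjamini-Hochberg adjusted p below 0.05). The log2 change is labelled knockout minus control. The fit was checked on simulated data. Near-copies were found with BLAST 2.17.0, and exact permutation tests used scipy 1.17.1. Named genes were Thbs1, in each complex the 4 tested members with the smallest p and the 3 with the highest mean, the isoform pairs, and the called genes of each list; 1 gene so chosen is not reported here. The members and lists were chosen with earlier results of these data known. Subunit roles were assigned after the values were seen. Alternatives covered scaling, pseudocount, filter, trend, weights, a replicate block and each library left out.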

Additional observations from a re-analysis of the deposited data

How the results depend on the processing

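The count of 0 members held under every alternative run except TPM, which called 25 and moved their median log2 change to 0.21. The count over all tested genes was 196, with 24 without a filter, 2144 with TPM, 89 without a trend, 81 with the replicate block and 59 to 106 with 1 library left out, and TPM moved the share of higher calls from 36.2% to 94.0%. Thbs1 ran from 0.19 to 1.26 with 1 library left out. The replicate numbers did not pair the libraries (correlations of -0.11, 0.04 and -0.08 between same-numbered libraries), not every library correlated best with its own number, and the block called 0 members. TPM turned the sign of Ndufa1 (0.067), Uqcrq (0.055), Cox5a (0.0022), Cox6b1 (0.10), Atp5mpl (0.076), Atp5md (0.11), Atp5j (0.11), Ndufb4c (0.092) and Cox6b2 (0.19). Array weights turned Cox6b2 (0.0021), and Sdhc turned with an equal protein-coding sum (-0.0096), quantile normalization (-0.038) and TPM without genes of at most 400 bases (-4.9e-05). With 1 library left out the sign also turned within ranges of -0.0064 to 0.10 for Sdhd, -0.040 to 0.063 for Sdhc, -0.26 to 0.041 for Uqcrq, -0.19 to 0.031 for Ndufb4c, -0.023 to 0.010 for Cox6b2 and -0.24 to 0.18 for Cox6c2. None of these genes passed the test on FPKM, and the cause was not tested. With 3 libraries a group, changes of 1.5-fold and of 2-fold can be missed, and Cox4i2 rests on 57 to 153 reads per library.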

Other observations

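Some symbols that were left out by name had levels like those of the members. Ndufb1-ps, whose locus holds mouse Ndufb1 and is annotated as a bidirectional promoter RNA, had 70.1, 78.8 and 72.4 FPKM in the libraries labelled knockout and 70.6, 80.2 and 101 FPKM in the control libraries (change of -0.17 ± 0.12 SE on the log2 scale, limma adjusted p = 0.519). Cox5b-ps, annotated as protein-coding, had 23.0, 25.1 and 22.5 FPKM in libraries labelled knockout and 23.7, 29.5 and 27.3 FPKM in controls (limma adjusted p = 0.382). Coq2, of coenzyme Q synthesis, was picked out after its values were seen, with 44.0, 48.8 and 48.3 FPKM in libraries labelled knockout and 40.6, 37.0 and 40.5 FPKM in controls. Its groups did not overlap and it did not pass the test (limma adjusted p = 0.138).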
